A study of Mus musculus with 16 samples.

Results

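Enteroendocrine cells (EECs) are the hormone-secreting cells of the intestinal epithelium, and the transcripts described here encode the peptide hormones they are best known for. The 8 genes, chosen by symbol, were *Gip*, *Cck*, *Sst*, *Ghrl*, *Sct*, *Nts*, *Gcg* and *Pyy*, out of 48440 genes measured. All 8 passed the filter on low values in the duodenum, jejunum and ileum. RNA-Seq was performed on Lgr5+ intestinal epithelial cells, the stem and progenitor cells of the crypt (ISCs), that were sorted by GFP from Lgr5eGFP mice, in which EGFP is expressed from the *Lgr5* gene. The 16 libraries came from 7 mice, each library being 1 segment of 1 mouse. There were 4 libraries after vertical sleeve gastrectomy (VSG) and 2 after sham surgery from the duodenum, 4 and 2 from the jejunum of the same mice, and 2 and 2 from the ileum. Per the methods, further libraries of each segment were left out for low mapping percentages. The cutoff was lower in the ileum than in the other segments. VSG removes the lateral part of the stomach, and sham mice received gentle pressure on the stomach instead. All mice were female, were fed a 60% high-fat diet for 16 weeks before surgery, were housed singly, and were killed 4 weeks after surgery, 15 minutes after a liquid meal that followed an overnight fast. The methods give 8 to 16 weeks as the age of the animals in the study. After 16 weeks of diet and 4 weeks from surgery these mice were older than that when killed, and their exact ages are not given. Each segment was 6 cm long, and cells positive for CD45, CD31, annexin V or Sytox Blue were sorted away. No lean mice and no mice without surgery are among these libraries. Replicate numbers stand for mice, and a VSG and a sham library with the same number come from different mice.

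Each type of EEC makes a preferred set of hormones, and the types are spread unevenly along the intestine. In textbook accounts GIP, CCK, secretin, ghrelin and somatostatin cells are most frequent in the upper small intestine, while neurotensin, GLP-1 and PYY become more frequent toward the ileum and colon. GIP and GLP-1 are the incretins, which strengthen insulin release after a meal. GLP-1, CCK and PYY reduce food intake, ghrelin increases it, and somatostatin restrains the release of other hormones. EECs arise from Lgr5+ ISCs through progenitors that express *Neurog3*, so hormone transcripts in a GFP+ gate can come from ISCs, from their recent daughters that still hold GFP, or from EECs that entered the gate.

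The promoters of 2 genes with lower levels in the ileum, *Gip* and *Cck*, and of 2 genes with higher levels there, *Gcg* and *Pyy*, are shown so that the regions before their start sites can be compared. Each run is the 250 bases upstream of the RefSeq start site in GRCm38.p6, written 5′ to 3′ on the strand of the gene. *Gip* lies on the plus strand (chr11:96024295-96024544), and *Cck* (chr9:121495695-121495944), *Gcg* (chr2:62483654-62483903) and *Pyy* (chr11:102107833-102108082) lie on the minus strand. Capitals mark matches on either strand to 4 motifs. The TATA box was searched as TATAAA. The motif of GATA factors was searched as AGATAA. That of CDX factors was searched as TTTATNG. The cyclic AMP response element was searched as TGACGTCA.
Gip: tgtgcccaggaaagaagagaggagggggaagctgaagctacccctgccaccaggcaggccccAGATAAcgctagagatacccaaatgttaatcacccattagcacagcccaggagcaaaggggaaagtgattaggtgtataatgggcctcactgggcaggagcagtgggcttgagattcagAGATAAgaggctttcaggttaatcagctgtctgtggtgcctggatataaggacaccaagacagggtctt
Cck: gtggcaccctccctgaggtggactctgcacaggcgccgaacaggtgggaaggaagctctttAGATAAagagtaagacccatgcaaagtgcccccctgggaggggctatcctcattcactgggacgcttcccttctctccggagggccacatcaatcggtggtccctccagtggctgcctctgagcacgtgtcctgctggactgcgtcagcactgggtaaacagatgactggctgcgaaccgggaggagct
Gcg: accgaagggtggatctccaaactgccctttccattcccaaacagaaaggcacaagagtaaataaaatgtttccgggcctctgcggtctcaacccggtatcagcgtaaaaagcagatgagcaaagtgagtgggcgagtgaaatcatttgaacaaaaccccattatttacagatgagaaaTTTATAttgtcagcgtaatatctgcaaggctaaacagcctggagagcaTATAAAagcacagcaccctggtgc
Pyy: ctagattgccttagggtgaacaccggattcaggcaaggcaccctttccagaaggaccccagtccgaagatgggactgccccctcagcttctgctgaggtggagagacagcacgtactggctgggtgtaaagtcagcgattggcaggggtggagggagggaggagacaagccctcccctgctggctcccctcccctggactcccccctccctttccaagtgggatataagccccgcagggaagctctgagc

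The *Gip* window held 2 AGATAA matches, which began at -188 and -69 from the start site, and the *Cck* window held 1, at -189. The *Gcg* window held 2 TATAAA matches, at -72 and -24. None of the 4 motifs was found in the *Pyy* window. Among all 32851 promoter windows of the same 250 bases, AGATAA occurred in 9.99%, TATAAA in 12.4%, TTTATNG in 9.81% and TGACGTCA in 1.55%. The E-box, CANNTG, which is not in capitals, occurred in 66.2% of windows, with 3 matches in *Cck*, 3 in *Gcg*, 2 in *Gip* and 1 in *Pyy*. AGATAA did not follow the ileal level over the other windows. The window of *Nts*, whose median was highest in the ileum, held an AGATAA match at -131. That of *Sst*, whose median was lowest there, held no AGATAA match and a TGACGTCA match at -48. In the *Sct* window a TTTATNG match on the opposite strand overlapped the TATAAA match, and they began at -29 and -28. A match is a description of these letters and was not tested as a site.

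The libraries were checked first with marker genes. The most frequent deposited value above 0 in each library, 0.586 to 2.07 normalized counts, was taken as 1 read. This gave a depth of about 10.9 to 63.6 M reads per library. The EEC markers *Chga* and *Chgb*, which encode the granins of the secretory granule, were above 0 in all 16 libraries, and *Lgr5* was above 0 in 14. Jejunal VSG replicate 1 stood apart from the other jejunal libraries. Its jointly scaled count of *Fabp6*, the ileal bile acid-binding protein, was 191139, while the other 5 jejunal libraries had 15.1 to 285 and the ileal libraries 47861 to 347560. Its *Slc10a2*, the ileal bile acid transporter, was 5712 against 0 to 144 in the others, and its *Gata4*, a transcription factor of the proximal small intestine, was 313 against 4507 to 6247. This library is therefore given apart in the levels below, and each jejunal result is given with and without it. Jejunal sham replicate 1 had *Lgr5* at 0 and *Chga* at 246, against 3001 to 4501 in the other 4 jejunal libraries besides VSG replicate 1. Its summed EEC markers other than hormones were 6158 against 23311 in sham replicate 2, and its summed enterocyte markers, at 2083056, were the highest of all 16 libraries. Ileal sham replicate 1 was the other library with *Lgr5* at 0.

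**Figure D1:**
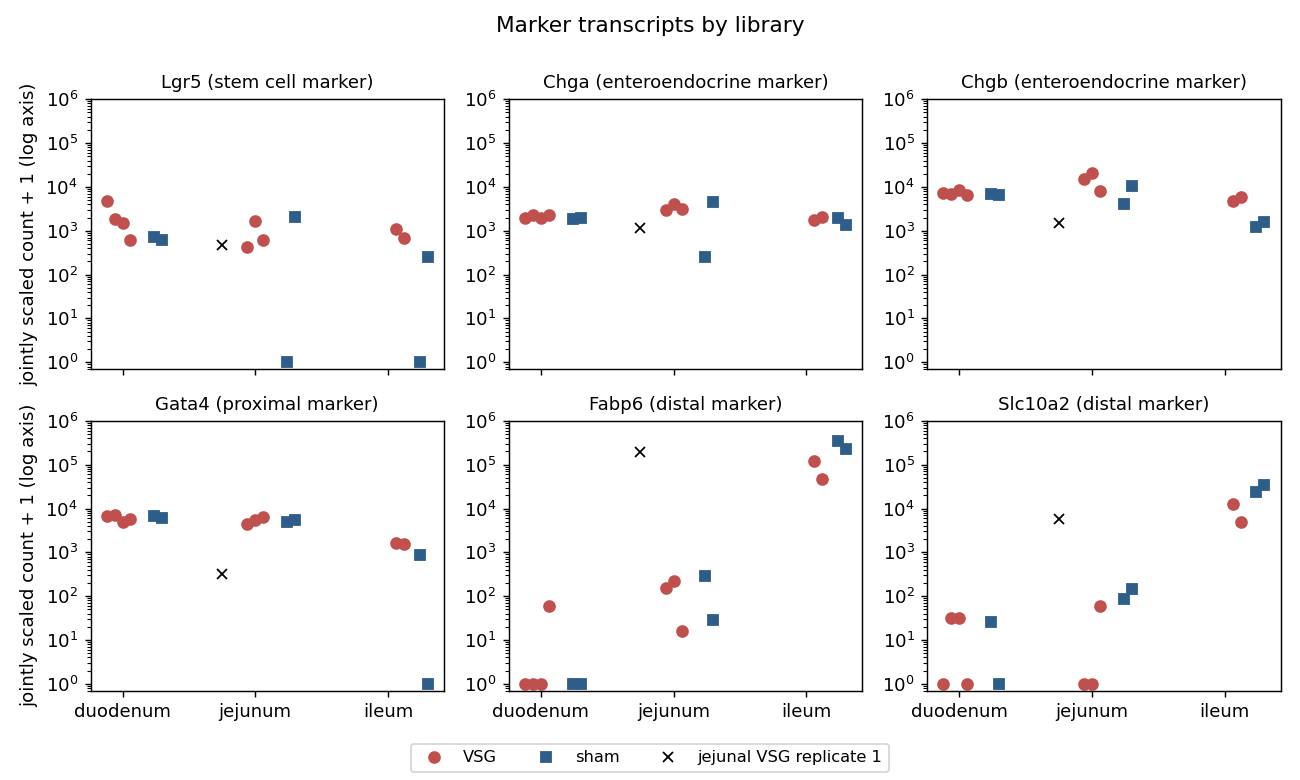
Jointly scaled counts plus 1 (log axis) of 6 marker transcripts in each library, by segment, with VSG libraries as circles, sham libraries as squares and jejunal VSG replicate 1 as a cross. The cross lies among the ileal libraries for Fabp6 and Slc10a2 and below the other jejunal libraries for Gata4, at 313.

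Hormone levels along the intestine were compared after joint scaling. The authors normalized each segment's table separately, so the deposited values were divided by size factors computed over the 7291 genes above 0 in all 16 libraries. These factors were 1.39 to 1.504 in the duodenum, 1.01 to 1.10 in the jejunum and 0.599 to 0.613 in the ileum. The resulting jointly scaled counts are given as values and ranges, with no test between segments. In these sorted pools, fewer cells making a hormone and less of its RNA per cell cannot be told apart. The pools also differed between segments. Summed stem cell markers, in jointly scaled counts, were 59329 to 125826 in the duodenum and 10106 to 32741 in the ileum. Summed enterocyte markers were 238759 to 782809 and 607837 to 1301265. Of all genes, 65.1% to 68.9% were at 0 in duodenal libraries and 71.2% to 78.1% in ileal libraries. The part of these differences in the hormone levels was not tested.

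The 8 transcripts did not share 1 pattern along the intestine. Counts of mice below leave out the mouse of jejunal VSG replicate 1. *Gip* and *Cck* had ileal ranges wholly below their jejunal ranges, and *Pyy* had an ileal range wholly above its jejunal range. Among all 16233 genes compared, 3.06% lay wholly lower and 1.93% wholly higher in the ileum than in the jejunum. *Sct* and *Gcg* had jejunal ranges wholly above their duodenal ranges, as did 0.881% of all genes, but for both this held with joint scaling only. With the deposited values, the same total per library or the same upper quartile, the duodenal and jejunal ranges of *Sct* and of *Gcg* overlapped, with the jejunal median still the higher. With jejunal VSG replicate 1 included, the jejunal and ileal ranges of *Gip* and of *Pyy* overlapped. *Sct*, *Nts*, *Gcg* and *Pyy* lay wholly higher in the ileum than in the duodenum, against 4.6% of all genes, and *Cck* lay wholly lower, against 10.4%.

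**Figure D2:**
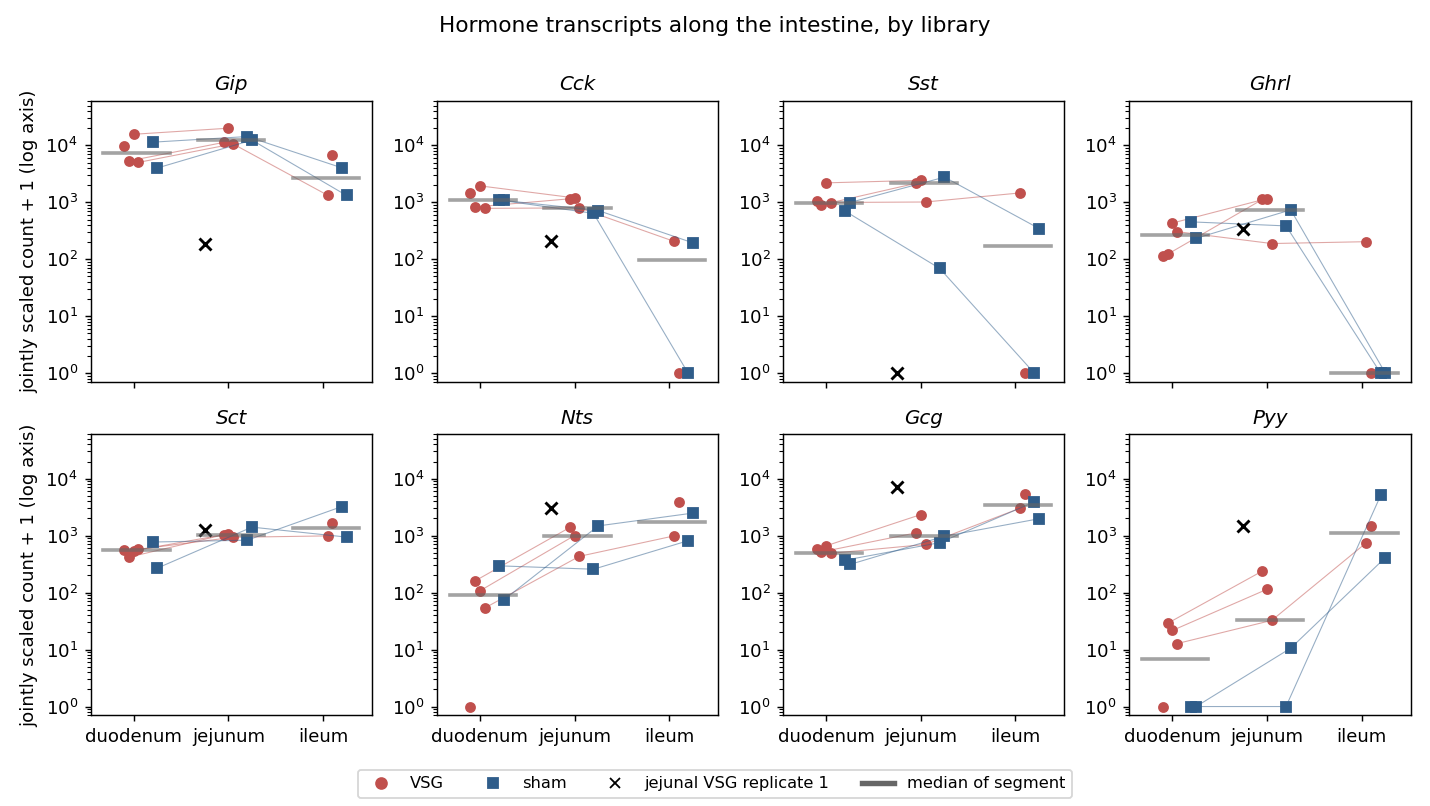
Jointly scaled counts plus 1 (log axis) of the 8 hormone transcripts in each library, by segment, with VSG libraries as circles, sham libraries as squares, jejunal VSG replicate 1 as a cross, lines joining libraries of 1 mouse and grey bars at segment medians. The upper row is Gip, Cck, Sst and Ghrl, whose medians were lowest in the ileum, and the lower row is Sct, Nts, Gcg and Pyy, whose medians were highest there.

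*Gip* (chr11:96024545-96030831, plus strand, GRCm38), which encodes the incretin of K cells, was the most abundant of the 8 per kb of exon in each segment. Its jointly scaled count had a median of 7465 in the duodenum (4010 to 15661, n = 6), 12378 in the jejunum (10617 to 20013, n = 5) and 2683 in the ileum (1319 to 6748, n = 4). Jejunal VSG replicate 1 stood at 181, below all of these libraries. *Gip* was higher in the jejunum than in the duodenum in 5 of 5 mice and lower in the ileum than in the jejunum in 3 of 3 mice, and the median was 4.61-fold lower in the ileum than in the jejunum. The step from duodenum to jejunum was upward in 3 of 5 mice with the deposited values or upper quartile scaling.

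*Cck* (chr9:121489824-121495694, minus strand) encodes cholecystokinin, the I cell hormone that contracts the gallbladder and limits meal size. Its jointly scaled count had a median of 1088 in the duodenum (784 to 1947) and 798 in the jejunum (640.4 to 1197). These ranges overlapped, and 2 of 5 mice were higher in the jejunum. In the ileum the values were 206 and 0 after VSG and 0 and 194 after sham, all below every duodenal and jejunal library, including jejunal VSG replicate 1 at 211.

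*Sst* (chr16:23889573-23890958, minus strand) encodes somatostatin, the inhibitory peptide of D cells. Its jointly scaled count had a median of 992 in the duodenum (702 to 2197) and 2161 in the jejunum (68.1 to 2772), where sham replicate 1 was the low library. The ileal values were 1463 and 0 in VSG and 0 and 346 in sham, and jejunal VSG replicate 1 was at 0. The 3 segments overlapped for *Sst*, and 1 of 3 mice was higher in the ileum than in the jejunum.

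*Ghrl* (chr6:113716119-113719880, minus strand) encodes ghrelin, the appetite-stimulating hormone made mostly in the stomach. Its median jointly scaled count was 269 in the duodenum (113 to 453) and 737 in the jejunum (188 to 1165), with overlapping ranges and 3 of 5 mice higher in the jejunum. Of the 4 ileal libraries, 3 were at 0 and VSG replicate 4 was at 203, while jejunal VSG replicate 1 was at 340.4. *Ghrl* overlaps the antisense gene *Gm26982*, with a mean normalized count of 81.5 (duodenum) and 27.1 (jejunum), and *Gm44033*, with 44.5 (duodenum), both on the opposite strand. Whether counting used strand is not given in the sources used here, so the values of *Ghrl* are uncertain to that extent.

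*Sct* (chr7:141278330-141279133, minus strand) encodes secretin, the S cell hormone that stimulates bicarbonate secretion by the pancreas. Its median jointly scaled count was 548 in the duodenum (268 to 771), 1034 in the jejunum (831 to 1409) and 1342 in the ileum (942 to 3238). The duodenal libraries lay below all others, with 5 of 5 mice higher in the jejunum than in the duodenum, and jejunal VSG replicate 1, at 1251, lay within both distal ranges. The jejunal and ileal ranges overlapped, and their order depended on the scaling. The ileal median was higher than the jejunal by 0.38 (log2) with joint scaling and lower, by -0.37, in the deposited values and by -0.06 with upper quartile scaling. With the deposited values or upper quartile scaling the duodenal range of *Sct* also overlapped the ileal range, and under each of the 3 other scalings 4 of 5 mice were higher in the jejunum than in the duodenum.

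*Nts* (chr10:102481756-102490486, minus strand) encodes neurotensin, a peptide of the distal small intestine that slows transit and promotes fat uptake. Its median jointly scaled count was 89.7 in the duodenum (0 to 294), 1003 in the jejunum (256 to 1481) and 1737 in the ileum (814 to 3821). The ileum lay above every duodenal library, and it was higher than the jejunum in 3 of 3 mice (2 of 3 with the deposited values), although these 2 ranges overlapped. The median was 11.2-fold higher in the jejunum than in the duodenum and 19.4-fold higher in the ileum than in the duodenum. Jejunal VSG replicate 1 had 3065, above every other jejunal library.

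*Gcg* (chr2:62474530-62483650, minus strand) encodes proglucagon, which EECs cleave to GLP-1 and GLP-2 and pancreatic alpha cells to glucagon. Its median jointly scaled count was 503 in the duodenum (311 to 662), 976 in the jejunum (699 to 2341) and 3473 in the ileum (1979.7 to 5377). With joint scaling 5 of 5 mice were higher in the jejunum than in the duodenum and 3 of 3 higher in the ileum than in the jejunum. With the deposited values the first count was 4 of 5, with a median difference of 0.41 (log2) against 0.96 with joint scaling. The jejunal and ileal ranges overlapped at jejunal VSG replicate 3, which had 2341 against 1979.7 in ileal sham replicate 2. Jejunal VSG replicate 1 had 7242, the highest of all 16 libraries.

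*Pyy* (chr11:102106676-102107832, minus strand) encodes peptide YY, the L cell hormone that slows gut transit and reduces appetite. Its jointly scaled counts were 0 in 3 of 6 duodenal libraries and 11.7 to 28.0 in the other 3, a scale on which 1 read is worth 0.504 to 1.01. In the jejunum they were 238, 114 and 31.6 in VSG replicates 2, 3 and 4 and 0 and 9.59 in the sham libraries. In the ileum they were 754 and 1495 in VSG and 5087 and 412 in sham, all above every duodenal and jejunal library other than jejunal VSG replicate 1, at 1462. The ileal median was 35.6-fold the jejunal median, and *Pyy* was higher in the ileum in 3 of 3 mice.

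The make-up of the hormone pool was then compared per kb of exon, since *Sct*, at 534 exonic bases, and *Nts*, at 1248, do not collect reads equally. *Gip* made up a median of 72.4% of the 8 transcripts in the duodenum (63.3% to 79.0%), 73.1% in the jejunum (63.1% to 85.6%) and 23.0% in the ileum (17.6% to 42.0%), and the ileal shares lay below all others except that of jejunal VSG replicate 1, at 1.81%. *Gcg* made up 3.00% in the duodenum (1.62% to 4.21%), 3.21% in the jejunum (2.84% to 5.40%) and 20.9% in the ileum (14.8% to 25.4%). *Pyy* went from 0.0557% and 0.246% to 10.6% (7.49% to 33.5%), *Nts* from 0.504% and 2.02% to 10.1% (2.68% to 22.6%), and *Sct* from 6.26% and 7.46% to 18.4% (13.6% to 24.9%). These shares are ratios within a library, so dividing a whole library by 1 factor does not change them. A factor applied to single genes before deposit would change them, and this was not examined. In jejunal VSG replicate 1, *Gcg* was 45.6%, *Nts* 16.8%, *Sct* 16.1% and *Pyy* 16.04% of the pool. The summed level of the 8 transcripts per kb overlapped between segments, at a median of 14840 in the duodenum (9224 to 29701), 25976 in the jejunum (20524 to 39869) and 17194 in the ileum (8801 to 24323).

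**Figure D3:**
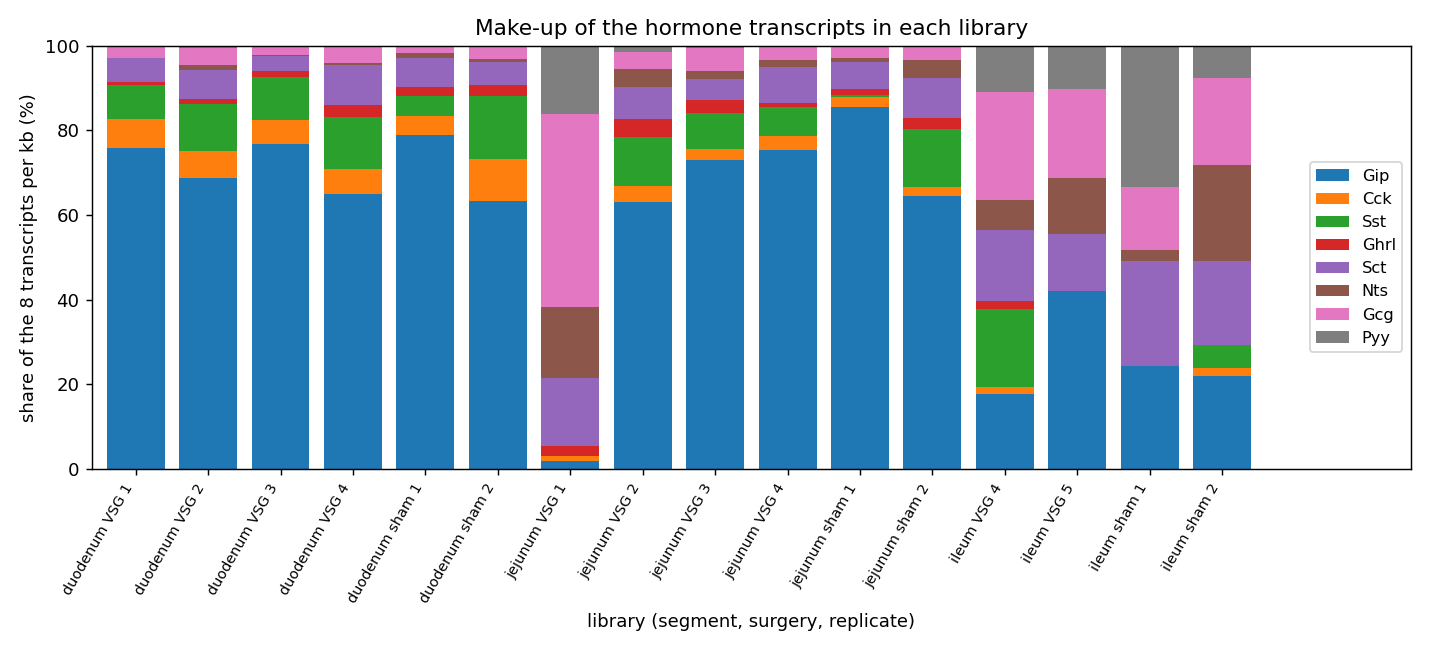
Share (%) of each hormone transcript in the sum of the 8 per kb of exon, with 1 bar per library. Gip fills most of each duodenal and jejunal bar, at medians of 72.4% and 73.1%, and 1.81% of the bar of jejunal VSG replicate 1, where Gcg is 45.6%.

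In the order of levels per kb, *Gip* came first in each segment, and its lowest library lay above the highest of every other hormone in the duodenum and jejunum. In the duodenum *Sst*, *Sct* and *Cck* followed, at medians of 1376, 1026 and 936 jointly scaled counts per kb, and these neighbours overlapped. *Gcg* (462) lay wholly below *Cck*, and *Ghrl* (273), *Nts* (71.9) and *Pyy* (9.39) came next, each overlapping its neighbour. In the jejunum *Sst* (2998), *Sct* (1937), *Gcg* (897), *Nts* (804), *Ghrl* (748) and *Cck* (687) followed *Gip* (18017), with overlap between each pair of neighbours after *Gip*, and *Pyy* (50.5) lay wholly below *Cck*. In the ileum *Gcg* (3192), *Sct* (2514), *Pyy* (1800) and *Nts* (1392) followed *Gip* (3906), with overlap between each pair of neighbours. The last 3 ileal places were *Sst* (239.8), *Cck* (83.3) and *Ghrl*, with a median of 0, and these also overlapped their neighbours.

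Across the 15 libraries without jejunal VSG replicate 1, the levels of *Cck* and *Sst* were the most alike among the members (Pearson's r of log2 levels 0.935), followed by *Gcg* and *Pyy* (0.881). *Cck* and *Gcg* ran opposite (-0.766). Both of these *Cck* values rest in part on ileal VSG replicate 5 and ileal sham replicate 1, where *Cck* and *Sst* were at 0. These values describe libraries that share mice, depth and segment. Among 12586 genes, the closest to *Gcg* were *Bmp2* (0.936) and *Rtn3* (0.928), and to *Pyy* *Gm2962* (0.945) and *Stx7* (0.944). The closest to *Gip* were *Apoc2* (0.848) and *Sema6b* (0.844), to *Sct* *Stom* (0.902) and *Mgat4c* (0.864), and to *Nts* *Sowaha* (0.911) and *Ocm* (0.903). The closest to *Cck* were *Acpp* (0.990) and *Atad2* (0.987), to *Sst* *Ccnb2* (0.984) and *Fam174b* (0.981), and to *Ghrl* *Serpinf2* (0.988) and *Smim19* (0.980). The last 6 values rest in part on ileal libraries in which both genes were at or near 0.

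VSG and sham were then compared within each segment, to see whether the surgery moved hormone transcripts in the sorted cells. None of the 8 passed the test in any segment (limma on log2 of the normalized count plus 1, adjusted over all genes tested). A gene was called where p was under 0.05, adjusted p under 0.2, the log2 fold change beyond 0.5 in either direction and the mean over 50. This held for 0.0237% of all duodenal genes and 0.0126% of all jejunal genes, and for 0 ileal genes, of which 455 (3.28%) had an unadjusted p under 0.05. The values below are the deposited normalized counts, and fold changes are on the log2(normalized count + 1) scale. The smallest p that the exact two-sided permutation test can give is 0.0667 for 4 against 2, 0.100 for 3 against 2 and 0.333 for 2 against 2.

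In the duodenum, *Gcg* was the hormone transcript whose groups did not overlap. Its normalized counts were 810.3, 754, 968 and 725 after VSG and 556 and 451 after sham, a log2 difference of 0.69 ± 0.42 (SE; limma adjusted p = 0.875; exact permutation p = 0.0667). The lowest VSG library exceeded both sham libraries, as it did for 6.44% of all genes. *Pyy* was at 0, 40.8, 30.2 and 17.4 after VSG and at 0 in both sham libraries, so its fitted difference depends on the pseudocount and is not given as a fold (limma adjusted p = 0.874). The 3 VSG libraries with *Pyy* held about 42.0, 41.0 and 17.0 reads, while a count of 0 allows up to 3 reads, counting error only.

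Duodenal *Gip* was 13341, 7768, 22890.1 and 7459 after VSG and 17121 and 5820 after sham, a log2 difference of 0.21 ± 0.52. The spread within each group was several times this difference, and the groups overlapped. *Cck* was 2037, 1210.2, 2845 and 1164 after VSG and 1649 and 1566 after sham (0.07 ± 0.41), again with the sham libraries inside the VSG range. *Sst* was 1482, 1316, 3212 and 1474 after VSG and 1056 and 1438 after sham (0.50 ± 0.41), with VSG replicate 3 far above the other 5 libraries.

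*Sct* in the duodenum was 769, 608, 792 and 853 after VSG and 1160.2 and 389 after sham (0.16 ± 0.52), and the 2 sham libraries lay on either side of all VSG libraries. *Ghrl* was 157, 178, 632 and 453 after VSG and 682 and 338 after sham (-0.68 ± 0.78), and *Nts* was 0, 233, 155 and 77.9 after VSG and 443 and 106 after sham (-2.40 ± 2.17). Both had the highest library in sham replicate 1 and overlapping groups. The difference of *Nts* was -0.61 without VSG replicate 1, the library at 0. The limma adjusted p of the 6 transcripts other than *Gcg* and *Pyy* was 0.880 to 0.980 in the duodenum. Over the 8 transcripts, 6 had a positive and 2 a negative fitted difference, with a median of 0.18 against 0.01 over all genes tested. Without *Pyy*, whose sign was fixed by the sham libraries at 0, the counts were 5 and 2, with a median of 0.16.

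Markers of other cells differed between the duodenal groups beside these values. Summed pancreatic markers, in jointly scaled counts, were 142 to 6604 after VSG, with 6604 in VSG replicate 3, and 94.6 to 249 after sham, and 7 of the 8 tested pancreatic markers were at 0 in both sham libraries. The islet genes *Ins1*, *Ins2*, *Ppy* and *Iapp* were at 0 in all 6 duodenal libraries. Summed stomach markers, from 10 genes, were 99.1 to 856 after VSG and 240.5 to 1495 after sham, with *Gast*, *Muc5ac* and *Atp4b* at 0 in all 6. Summed tuft cell markers were 8275 to 17337 after VSG and 2923 to 6243 after sham, with 4 of 7 at an unadjusted p under 0.05 and higher after VSG, against 2.79% of all genes. Of these 7 markers, *Il25* and *Gfi1b* were at 0 in both sham libraries. All 7 goblet cell markers had a positive difference, 1 with an unadjusted p under 0.05, and their sums overlapped, at 83022 to 203161 after VSG and 68303 to 115915 after sham. All 10 enterocyte markers had a negative difference, 6 with an unadjusted p under 0.05 against 3.48% of all genes in that direction, and their sum was 238759 to 478032 after VSG and 542398 to 782809 after sham. Their part in the hormone values was not tested.

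In the jejunum, *Pyy* was the only member with an unadjusted p under 0.05, which 3.63% of all genes had in the same direction. The VSG libraries held 1507 (replicate 1), 244, 115 and 32.2 normalized counts and the sham libraries 0 and 9.68, a log2 difference of 5.89 ± 2.23 (limma p = 0.0244, adjusted p = 0.760; exact permutation p = 0.0667). The lowest VSG library again exceeded both sham libraries, as for 6.59% of all genes. With a sham library at 0, the size of this difference depended on the pseudocount, being 6.42 with 0.5 and 3.92 with 10. Without VSG replicate 1 the difference was 4.91 ± 2.35 (limma p = 0.0684, adjusted p = 0.774; exact permutation p = 0.100), and the groups still did not overlap, as for 10.4% of all genes. Without sham replicate 2 it was 7.601 and passed all thresholds (limma adjusted p = 0.164), in a fit that called 2710 genes and left sham replicate 1, the library with *Lgr5* at 0, as the only sham. Without sham replicate 1 it was 4.18 (limma adjusted p = 0.934).

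Jejunal *Gcg* was 7462, 1148, 2364 and 714 after VSG and 826 and 986 after sham, a log2 difference of 1.11 ± 0.79 (limma adjusted p = 0.760; exact permutation p = 0.4). Without VSG replicate 1 the difference was 0.47 ± 0.59 (adjusted p = 0.842; exact permutation p = 0.6), and in both cases VSG replicate 4 lay below both sham libraries. *Nts* was 3158, 1425, 1013 and 441 after VSG and 281 and 1495 after sham, with a log2 difference of 0.87 ± 0.85 in all libraries and 0.41 ± 0.83 without VSG replicate 1. The difference was -0.33 without sham replicate 1. *Sct* was 1289, 1059.8, 1082 and 953 after VSG and 913 and 1422 after sham, and differed by -0.06 ± 0.44, or -0.15 ± 0.47 without VSG replicate 1.

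For the proximal hormones, VSG replicate 1 set the size or the direction of the jejunal difference. *Gip* was 187 in VSG replicate 1, 11535, 20203 and 10843 in the other VSG libraries and 15709 and 12496 in sham, which gave -1.59 ± 1.503 with that library and -0.04 ± 0.38 without it. *Cck* was 217 in VSG replicate 1, 1183, 1209 and 815 in the other VSG libraries and 704 and 725 in sham, which gave -0.01 ± 0.75 with it and 0.56 ± 0.50 without it. Without it, the lowest VSG library exceeded both sham libraries for *Cck*, as for 10.4% of all genes (limma adjusted p = 0.777; exact permutation p = 0.2).

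*Sst* was 0 in VSG replicate 1, 2215, 2459 and 1035 in the other VSG libraries and 74.8 and 2799 in sham, which gave -0.75 ± 2.87 with VSG replicate 1 and 1.95 ± 1.27 without it. The 2 sham libraries differed more from each other than the group means did. *Ghrl* was 351, 1151, 1176 and 192 after VSG and 423 and 744 after sham, a log2 difference of -0.03 ± 0.86, or 0.19 ± 0.90 without VSG replicate 1. Over the 8 transcripts, 3 had a positive and 5 a negative jejunal difference, with a median of -0.02 against 0.11 over all genes. Without VSG replicate 1 the counts were 6 and 2, with a median of 0.44, without sham replicate 1 they were 2 and 6, with a median of -0.36, and without sham replicate 2 they were 7 and 1, with a median of 0.81.

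The jejunal sham libraries themselves differed in composition. In sham replicate 1 the 8 transcripts summed to 17229.8 jointly scaled counts and the EEC markers other than hormones to 6158, while in sham replicate 2 the sums were 20480.2 and 23311. The VSG libraries other than replicate 1 had hormone sums of 14712 to 29341 and EEC marker sums of 18292 to 34508. Goblet cell marker sums were 198582 to 384835 in these VSG libraries and 96706 and 229470 in sham, and tuft cell marker sums were 5032 to 17365 and 1311 and 10309. The enterocyte sum of 554363 to 971968 in these VSG libraries compared with 2083056 and 847325 in the sham libraries. The part of these differences in the hormone values was not tested.

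**Figure D4:**
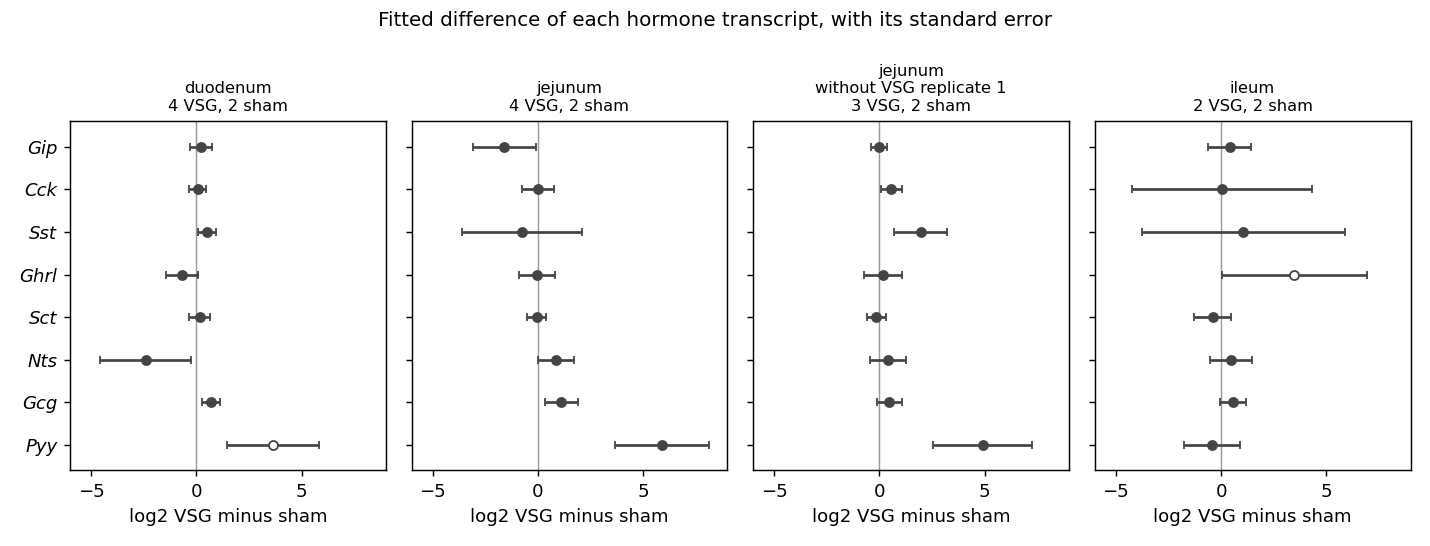
Fitted log2 difference of VSG minus sham (x axis) of each hormone transcript in the duodenum, the jejunum, the jejunum without VSG replicate 1 and the ileum, as points with bars of 1 standard error, open where a whole group was listed at 0 and the size depends on the pseudocount. Pyy in the jejunum lies farthest from 0, at 5.89 with and 4.91 without VSG replicate 1, and none of the points passed the adjusted threshold.

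In the ileum, each group held 2 libraries and no hormone transcript separated the groups, while 28.6% of all genes did. *Gcg* was 1863 and 3276 after VSG and 2348 and 1186 after sham (0.57 ± 0.62; limma adjusted p = 0.736; exact permutation p = 0.667). *Pyy* was 463 and 911 after VSG and 3056 and 247 after sham (-0.42 ± 1.34), and the sham libraries lay on either side of the VSG libraries. *Nts* was 606 and 2328 after VSG and 489 and 1489 after sham (0.48 ± 0.99), and *Sct* was 607 and 1033 after VSG and 1945 and 564 after sham (-0.40 ± 0.89).

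Ileal *Gip* was 817 and 4112 after VSG and 2424 and 789.8 after sham, a log2 difference of 0.41 ± 1.01. *Sst* was at 898 and 0 after VSG and 0 and 207 after sham, and *Cck* at 126 and 0 after VSG and 0 and 116 after sham, with 1 library of each group at 0. *Ghrl* was at 125 and 0 after VSG and at 0 in both sham libraries, so its fitted difference is not given as a fold. Over the 8 transcripts, 6 had a positive and 2 a negative fitted difference, with a median of 0.44 against 0.24 over all genes tested. Without *Ghrl*, whose sign was fixed by the sham libraries at 0, the counts were 5 and 2, with a median of 0.41. Without sham replicate 1, which had *Lgr5* at 0, the counts were 5 and 3.

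Whether the VSG difference itself differed between jejunum and duodenum was tested on each mouse's jejunal minus duodenal log2 value, in which the scaling of each table cancels. None of the 8 transcripts passed (limma adjusted p = 0.963 to 1.00), and 0 of 14718 genes had an adjusted p under 0.2, with 4.1% at an unadjusted p under 0.05. *Nts* had the largest difference, 3.28 ± 2.77, with a mean step from duodenum to jejunum of 4.85 in VSG and 1.58 in sham mice. Without VSG replicate 1, whose duodenal value was 0, it was 1.02. *Pyy* differed by 2.25 ± 3.35, or 0.06 without VSG replicate 1, and *Gip* by -1.79 ± 1.72, or -0.18. *Gcg* differed by 0.42 ± 0.91, or -0.22 without that mouse.

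Other genes of hormone production are given by the same fits, as lists described by their counts and medians. Jejunal results of these lists include VSG replicate 1 and are not given without it. None of the genes in these lists passed the thresholds in any segment. Over all genes tested, a positive difference was seen in 8550 of 16867 (duodenum), 8718 of 15857 (jejunum) and 7894 of 13853 (ileum), with medians of 0.01, 0.11 and 0.24. A gene at 0 in every sham library that passed the filter could only be positive, so counts below are given over the genes above 0 in at least 1 library of each group. Over all such genes the positive counts were 7374 of 15376 (duodenum), 7243 of 14037 (jejunum) and 5741 of 10725 (ileum), with medians of -0.03, 0.03 and 0.09. Of 18 EEC transcription factors, 15 were in both duodenal groups, 11 with a positive difference and a median of 0.38. *Nkx2-2*, which acts in endocrine progenitors, was the 1 with an unadjusted p under 0.05 in that direction, against 2.79% of all genes, at 313, 1482, 719 and 417 after VSG and 96.7 and 99.7 after sham (2.63 ± 0.76; limma adjusted p = 0.522). In the jejunum 9 of 15 were positive, with a median of 0.32, and none of the 18 tested had an unadjusted p under 0.05. In the ileum 13 of the 18 factors were listed at 0 in both sham libraries, among them 6 of the 11 tested, and 2 of the other 5 were positive, with a median of -0.11. *Rfx6*, the 1 with an unadjusted p under 0.05 against 2.09% of all genes, was at 183 and 363 after VSG and at 0 in both sham libraries (limma adjusted p = 0.736).

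Of the granins and enzymes that process prohormones, 8 of 10 in both groups were positive in the duodenum (median 0.36) and 6 of 11 in the jejunum (median 0.23). In the jejunum 2 had an unadjusted p under 0.05 and a positive difference, against 3.63% of all genes. *Scg5*, a chaperone of the convertase PC2, was at 304, 61.1, 117 and 102 after VSG and at 0 in both sham libraries (limma adjusted p = 0.760). *Pcsk1*, the convertase that releases GLP-1 from proglucagon, was the other and stood at 1092, 567, 481 and 472 after VSG and at 0 and 612 after sham (limma adjusted p = 0.760), so that its difference rests on sham replicate 1. In the ileum 6 of 9 were positive (median 0.60), and *Chgb*, the 1 with an unadjusted p under 0.05 against 2.09% of all genes in that direction, was at 2904 and 3672 after VSG and 738 and 971 after sham (1.95 ± 0.55; limma adjusted p = 0.736). *Pcsk2*, which makes glucagon in alpha cells, was listed at 0 in all 16 libraries.

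Of 20 receptor genes, 10 were listed at 0 in all 16 libraries, among them *Glp1r*, *Glp2r*, *Ghsr*, *Cckar*, *Cckbr* and *Sctr*. *Sort1*, at 4780 to 9433 jointly scaled counts, was the 1 receptor above 0 in all 16. Of those that passed the filter, 5 of 6 were in both duodenal groups (4 positive, median 0.65) and 3 of 4 in both ileal groups (1 positive, median -0.21). Of 9 in the jejunum, 6 were at 0 in both sham libraries and 2 in all VSG libraries, which left *Sort1*. In the jejunum 2 had an unadjusted p under 0.05 and a positive difference, against 3.63% of all genes. *Sstr5*, a somatostatin receptor, was at 37.7, 104, 172 and 88.4 after VSG and at 0 in both sham libraries (limma adjusted p = 0.760). *Sort1*, which binds neurotensin, was at 8482, 9178, 8788 and 8186 after VSG and 5252 and 5607 after sham (0.67 ± 0.28; limma adjusted p = 0.760).

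Of the 12 sensors through which EECs read nutrients and bile acids, 4 of 8 in both groups were positive in the duodenum (median -0.03), 5 of 8 were in the jejunum (0.64) and 2 of 6 ileal differences were (-0.29). *Ffar3*, a receptor for short-chain fatty acids, was at 283, 204, 376 and 316 in the duodenum after VSG and 142 and 0 after sham (limma adjusted p = 0.689). It was the 1 sensor with an unadjusted p under 0.05, against 2.79% of all duodenal genes in that direction. The size of its difference rests in part on the sham library at 0. *Gpbar1*, the membrane bile acid receptor TGR5, was listed at 0 in all 16 libraries. *Nr1h4*, which encodes the nuclear bile acid receptor FXR, was above 0 in all 16, at 879 to 9108 jointly scaled counts. Among other peptide precursors, 1 of 6 duodenal differences was positive (median -0.62), as were 3 of 8 jejunal ones (-0.87) and 0 of 4 ileal ones (-0.52). *Guca2b*, which encodes uroguanylin, was at 5908, 10569.6, 13006 and 6054 after VSG and 22834 and 13647 after sham in the duodenum (-1.08 ± 0.37; limma adjusted p = 0.615). In the jejunum it was at 15268, 18742, 15771 and 13792 after VSG and 55602 and 18322 after sham (-1.01 ± 0.44; limma adjusted p = 0.760), so that the groups overlapped and sham replicate 1 was the high library. Its unadjusted p was under 0.05 in both, against 3.48% and 2.4% of all genes in that direction, beside the enterocyte sums given above.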

How the data were processed

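RNA-Seq libraries (NEBNext Ultra II Directional kit, single end, 85 nt) were made by the authors from sorted GFP+ cells. Per the submitters' processing notes and methods, alignment to mm10 used STAR v2.5.3a and quantification Salmon v0.6.0. The deposited signal values are counts that the authors scaled with DESeq2, 1 segment at a time. In each library 37.8% to 49.0% of the values examined were whole multiples of 1 read (tolerance 0.01), so a count test was not used. The authors' deposited tables of differential expression (mean, log2 fold change, standard error, statistic and p-values) were not used.

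For each segment, limma-trend (limma 3.58.1, R 4.3.3) was fitted to log2(normalized count + 1) of genes whose mean exceeded 10. Single genes also had exact two-sided permutation tests. Each library is 1 segment of 1 mouse, so p-values measure the spread between mice. Joint scaling used median-of-ratios size factors. Levels per kb used exons of GENCODE M21 (GRCm38), and promoters came from RefSeq (GRCm38.p6), where 7 of 8 genes had a window before the RefSeq start site. The limma script was tested on simulated data. Python 3.11.15 with pandas 2.3.3 and matplotlib 3.10.9 was used for the rest. The members and lists were chosen with earlier results of these data known. In each list, named genes were up to 2 with the highest and 2 with the lowest fold change among those with an unadjusted p under 0.05, and those listed at 0 throughout. *Nr1h4* was named in addition, as a bile acid receptor on the same list as *Gpbar1*. Alternatives were other pseudocounts, filters and scalings, limma without trend, a stricter threshold, leaving out each library and a replicate block.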

Additional observations from a re-analysis of the deposited data

Results flagged for a closer look

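Among the 16 groups of 4 libraries that could be examined, 2 held a library far from the other 3. A chance rate of about 1 in 20 groups would hold for independent groups of normally distributed values. The groups here share libraries, so that rate is only a guide. In the duodenum, *Sst* was at a normalized count of 3212 in VSG replicate 3, against 1316 to 1482 in the other VSG libraries. The same library had the highest summed pancreatic markers of all 16, at 6604 jointly scaled counts, and the highest duodenal *Gip*, *Cck* and *Gcg*. In the jejunum, *Pyy* was at 1507 in VSG replicate 1, against 32.2 to 244 in the other VSG libraries. This is the library whose *Fabp6*, *Slc10a2* and *Gata4* lay outside the range of the other jejunal libraries.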

How the results depend on the processing

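Of the separations along the intestine, those of *Gip*, *Cck* and *Pyy* between jejunum and ileum and of *Nts*, *Gcg*, *Pyy* and *Cck* between duodenum and ileum held with all 4 scalings, while those of *Sct* and *Gcg* between duodenum and jejunum held with joint scaling only and that of *Sct* between duodenum and ileum with joint scaling and the same total. Ileal *Ghrl*, which overlapped the jejunum with joint scaling, lay wholly below it with the other 3. No hormone transcript was called under any alternative except jejunal *Pyy* without sham replicate 2 (7.601). The number of genes called among all genes moved more. In the duodenum it was 4, and it was 0 with a pseudocount of 0.5, with no filter, with a mean above 50, with each library scaled to the same total and with an adjusted p under 0.05, while it was 10 with a pseudocount of 10 and 43 without trend. In the jejunum it was 2, and 61 without trend and 1 with an adjusted p under 0.05. In the ileum it was 0, and 3 with a pseudocount of 10 and 463 without trend. Leaving out each library in turn gave 0 to 259 in the duodenum (259 without sham replicate 1, 47 without sham replicate 2), 1 to 2710 in the jejunum (2710 without sham replicate 2), 0 to 631 in the ileum (631 without VSG replicate 5) and 0 to 815 for the jejunal minus duodenal difference (main 0). Where 1 sham library was left, it was assumed to vary like the other group. Scaling to the same total moved the median log2 difference of all genes in the jejunum from 0.11 to 0.34 and in the ileum from 0.24 to 0.35.

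Same-numbered VSG and sham libraries come from different mice, so the numbers do not pair them. Deviations of the 2 sham libraries from their mean mirror each other. Correlations of VSG and sham deviations (-0.09 to 0.09) therefore came in pairs of opposite sign and could not show whether numbers pair libraries. With a replicate block, 0 genes were called in either segment (0 duodenal, 0 jejunal), and the log2 difference changed sign for duodenal *Cck* (-0.0334), jejunal *Sct* (0.0367) and jejunal *Ghrl* (0.18). No paired analysis was possible in the ileum because the groups share no 2 numbers.

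None of the differences that changed sign had passed the test. Scaling to the same total turned jejunal *Sct* (0.16), *Ghrl* (0.20) and *Cck* (0.22) and the jejunal minus duodenal difference of *Cck* (0.0641). A pseudocount of 10 turned jejunal *Sst* (0.00399), and quantile normalization turned ileal *Cck* (-0.95). Leaving out 1 library in turn gave ranges across 0 in the duodenum for *Sct* (-0.63 to 0.95), *Cck* (-0.18 to 0.25) and *Gip* (-0.57 to 0.99), and in the jejunum for *Sct* (-0.38 to 0.26), *Sst* (-3.35 to 1.95), *Nts* (-0.33 to 2.08), *Ghrl* (-0.43 to 0.48) and *Cck* (-0.27 to 0.56). In the ileum they were *Sct* (-1.30 to 0.49), *Sst* (-3.85 to 5.96), *Nts* (-0.49 to 1.45), *Cck* (-3.43 to 3.56), *Gip* (-0.76 to 1.57) and *Pyy* (-2.23 to 1.39), and for the jejunal minus duodenal difference *Sct* (-1.33 to 0.88), *Sst* (-3.63 to 1.37), *Ghrl* (-0.26 to 1.56), *Cck* (-0.49 to 0.58) and *Gcg* (-0.22 to 0.85). Without a change of sign, the ranges were -3.43 to -0.61 for duodenal *Nts*, -1.19 to -0.18 for duodenal *Ghrl*, 0.21 to 0.72 for duodenal *Sst*, -2.29 to -0.04 for jejunal *Gip*, 0.47 to 1.59 for jejunal *Gcg* and 0.07 to 1.06 for ileal *Gcg*. The causes were not tested.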

Other observations

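Other peptide precursors also differed along the intestine, in ranges that leave out jejunal VSG replicate 1. *Guca2a*, which encodes guanylin, had a median jointly scaled count of 1287 in the duodenum (985 to 2023), 8424 in the jejunum (4675 to 10752) and 23652 in the ileum (20100.0 to 29149). These 3 ranges did not overlap. Of all genes, 0.881% lay wholly higher in the jejunum than in the duodenum, and 1.93% wholly higher in the ileum than in the jejunum. With jejunal VSG replicate 1 included, the jejunal and ileal ranges of *Guca2a* overlapped. *Edn3*, an endothelin, had medians of 179 (135 to 401), 529 (357 to 1382) and 1038 (268 to 2802), with overlap between neighbours. *Tac1*, the substance P precursor of serotonin-producing EECs, had medians of 219.7, 345 and 110.4, and its ranges overlapped in all segments. Of the 17 other peptide precursors on the list that were found in the tables, 9 were listed at 0 in all 16 libraries, among them gastrin (*Gast*), pancreatic polypeptide (*Ppy*) and the colonic hormone *Insl5*. These genes were chosen after their values were seen.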
